A study of Arabidopsis thaliana with 4 samples.

Results

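Fuzzy nucleosome calls are described here, that is calls on the chromosome arms whose deposited fuzziness was 55 bp or more. Fuzziness is taken here as the spread of the called position. There were 23105 fuzzy calls among 1253289 calls in 4 lists, with 6671 and 5906 in the top1a-2 replicates 1 and 2, and 5429 and 5099 in the Ler replicates 1 and 2. Arms were the positions over 2.5 Mb away from 15, 3.6, 14, 4 and 12 Mb on chromosomes 1 to 5, which were taken as centromere midpoints. The 587398 arm calls with a fuzziness of 35 to 45 bp, called mid-range below, served for comparison.

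The libraries come from micrococcal nuclease sequencing of inflorescences with unopened buds of Arabidopsis thaliana. All plants were of the ecotype Landsberg erecta. The top1a-2 plants carry a mutant allele of TOP1α, a DNA topoisomerase I, and the Ler plants are the unmutated ecotype, with 2 libraries of each genotype. The labels do not say whether the replicates came from separate plants, so the p-values measure only the spread between these libraries, which may be technical. The lists held 335395 and 315609 calls in top1a-2 and 315744 and 286541 in Ler, and the number of reads behind them is unknown.

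A nucleosome that takes the same place in most cells leaves protected fragments with sharply aligned ends, and its call is narrow. Where the place varies from cell to cell, the fragment ends scatter and a call made from them is wide. Topoisomerase I relaxes the supercoils that transcription and replication leave in DNA, and the wrapping of DNA around histones stores supercoils too. The members were chosen by their fuzziness values, so the fuzziness of the members is only described. The tests concern the genotypes, the other columns of the lists, and the libraries that did not choose the call. Further tests concern where fuzzy calls lie along the chromosomes, and these use the fuzziness of the same list.

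Fuzzy calls took a slightly larger share of the arm calls in top1a-2 than in Ler. The share was 2.42% (95% Wilson interval 2.37 to 2.48) and 2.30% (2.24 to 2.36) in the top1a-2 replicates, against 2.12% (2.06 to 2.17) and 2.21% (2.15 to 2.27) in the Ler replicates, where the intervals cover counting error only. Both mutant libraries were above both Ler libraries. The top1a-2 mean was 2.36% ± 0.0881 and the Ler mean 2.16% ± 0.0646 (SD, 2 libraries each), a difference of 0.197 percentage points or a ratio of 1.09 (exact permutation p = 0.333). That p is the smallest that 2 libraries against 2 can give, so no genotype comparison of single values here could pass a threshold of 0.05, and the lowest adjusted value over the 16 measures compared was 0.533. Per Mb of arm the fuzzy calls numbered 72.4 and 64.1 in top1a-2 and 58.9 and 55.3 in Ler, a difference of 11.1 that was 6.97 without top1a-2 replicate 1. The difference in share was 0.135 percentage points without top1a-2 replicate 1, whose list was the longest. Replicate 2 of top1a-2 and replicate 1 of Ler held nearly equal numbers of arm calls, 257078 and 256502, and had shares of 2.30% and 2.12%. The part of call number in the share was not tested. With 50 bp as the threshold the genotypes overlapped, at 7.71% and 7.75% in top1a-2 against 7.52% and 7.76% in Ler.

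**Figure D1:**
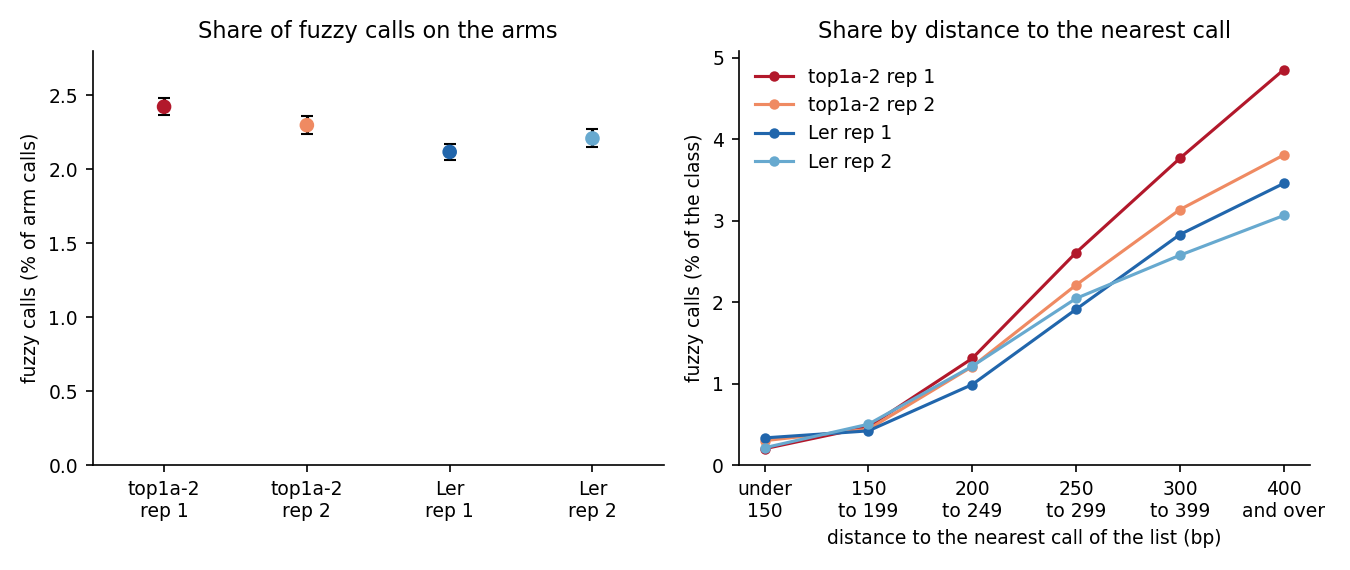
Left, fuzzy calls as a percentage of the arm calls of each library, where points are single libraries and bars are 95% Wilson intervals for counting error. Right, the same percentage within 6 classes of distance to the nearest call of the same list; both top1a-2 libraries lie above both Ler libraries in the 3 classes from 250 bp upward.

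The fuzzy tail and the upper flank of the fuzziness distribution differed between the genotypes in opposite directions. Calls over 45 and under 55 bp made up 14.9% and 16.4% of the arm calls in top1a-2 and 16.8% and 17.4% in Ler, so here both mutant libraries were below both Ler libraries. Calls of 60 bp or more made up 0.778% and 0.707% in top1a-2 against 0.583% and 0.672% in Ler (exact permutation p = 0.333 for both measures). The median fuzziness of all arm calls was 39 bp in both top1a-2 libraries and 40 bp in both Ler libraries, and the 95th percentile was 51 bp in all 4. Calls at the other end, of up to 25 bp, made up 8.85% ± 2.20 of the arm calls in top1a-2, against 5.28% ± 0.727 in Ler (SD, n = 2 each). By library it was 10.4% and 7.29% in top1a-2 and 5.80% and 4.77% in Ler, in the order of the number of arm calls. Their median confidence scores were 0.441 and 0.357 in top1a-2 and 0.411 and 0.323 in Ler, below those of mid-range calls. In 67.5% to 70.5% of them the nearest call lay under 200 bp away. Whether these calls are well-placed nucleosomes was not tested.

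Most fuzzy calls lay close to the threshold. Calls of 55 to 59 bp were 67.9% and 69.2% of the fuzzy calls in top1a-2, and 72.5% and 69.5% in Ler, and the median was 57 bp in each library. A fuzziness of 100 bp or more was given to 43 and 27 calls in top1a-2 and to 20 and 23 in Ler, with highest values of 577 and 989 bp in top1a-2 and of 415 and 373 bp in Ler. In 5.86% to 7.75% of the fuzzy calls of a library the fuzziness exceeded the size of the call itself. The threshold cut through a smooth decline. Just inside it, at 55 bp, there were 1381 and 1285 calls in top1a-2 and 1201 and 1125 in Ler. Just outside it, at 54 bp, there were 1787 and 1646 in top1a-2 and 1582 and 1439 in Ler. The median sizes at 55 bp, of 152 and 154 bp in top1a-2, against 151 and 152 bp in Ler, stood beside 152 and 154 bp in top1a-2, against 151 and 154 bp in Ler at 54 bp.

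The sizes of fuzzy calls scattered about a median near that of other nucleosomes. The interquartile range of size was 52.5 ± 2.14 bp for fuzzy calls and 28.2 ± 2.46 bp for mid-range calls (SD, n = 4 libraries), a difference of 24.4 ± 0.426 bp seen in 4 of 4 libraries (exact sign-flip permutation p = 0.125). This p is the smallest that 4 libraries allow, and its adjusted value over the 28 such comparisons was 0.14. Sizes under 100 bp made up 14.2% and 12.2% of the fuzzy calls in top1a-2 and 15.95% and 14.8% in Ler, against 2.68% and 2.23% of the mid-range calls in top1a-2 and 4.25% and 3.64% in Ler. Sizes over 200 bp made up 10.0% ± 0.474 of fuzzy and 2.55% ± 1.02 of mid-range calls. In every library the fuzzy class thus had larger shares of short and of long calls than the mid-range class, which holds many more calls.

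The median size itself differed little, by 6.49 ± 4.69 bp on average (SD, n = 4), and by an amount that went with the replicate number. It was 150 and 155 bp for the fuzzy calls of top1a-2 replicates 1 and 2 and 148 and 154 bp for those of Ler. The mid-range medians were 146 and 144 bp in top1a-2, against 146 and 144 bp in Ler. The excess of the fuzzy calls was 3.54 and 10.9 bp in top1a-2 against 1.48 and 10.0 bp in Ler, so the genotypes overlapped (exact permutation p = 0.667). With 60 bp as the threshold the average excess was 2.31 bp, and the libraries no longer shared 1 sign. Size also changed within the fuzzy class. For fuzziness of 55 to 59, 60 to 64 and 65 to 74 bp, the median size was 151, 146 and 140 bp in top1a-2 replicate 1 and 156, 152 and 149 bp in replicate 2. In Ler it was 150, 140 and 132 bp in replicate 1 and 154, 154 and 142 bp in replicate 2. Size was thus lowest at 65 to 74 bp among these 3 ranges in every library. Between 75 and 99 bp, where each library held 83 to 153 calls, the median size was 175 and 176 bp in top1a-2, against 178 and 190 bp in Ler.

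**Figure D2:**
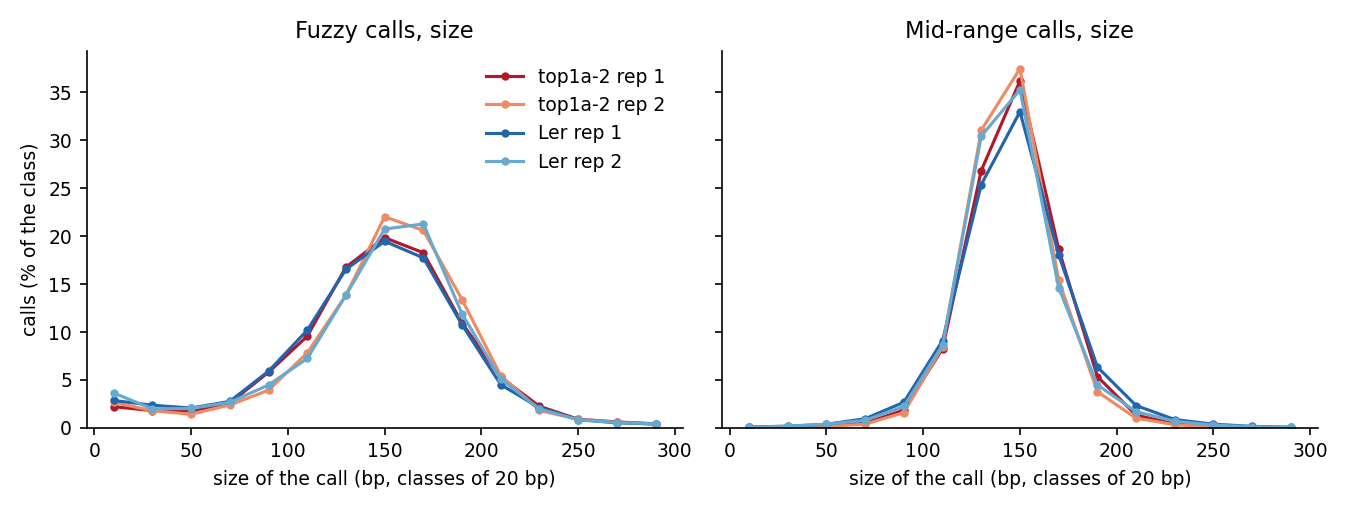
Size of fuzzy calls (left) and mid-range calls (right), as the percentage of the class in steps of 20 bp; each line is a library, and calls of 300 bp or more are not drawn. The fuzzy calls of all 4 libraries spread more widely, and a small share of them had sizes under 20 bp.

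The confidence score is the value the authors' caller gave each call, and its scaling is not stated. Fuzzy calls had a slightly lower median score than mid-range calls, at 0.850 and 0.794 against 0.908 and 0.866 in top1a-2, and at 0.879 and 0.789 against 0.918 and 0.912 in Ler. The log2 ratio of fuzzy to mid-range medians averaged -0.12 ± 0.06 (SD, n = 4; negative in 4 of 4 libraries, exact sign-flip permutation p = 0.125). It was 0.02 after dropping calls that scored under the lower quartile, and 0.05 with 50 bp as the threshold, so its direction depended on these settings. Against all arm calls under 55 bp it was -0.0045, with 60 bp as the threshold -0.54, and at the same mix of distances -0.28. Calls under the lower quartile of their own list made up 28.1% ± 1.07 of fuzzy and 17.8% ± 0.469 of mid-range calls. Within the class the score fell steeply with fuzziness. Calls of 55 to 59 bp had a median score of 0.915 and 0.865 in top1a-2 and 0.943 and 0.873 in Ler, while calls of 75 to 99 bp had 0.289 and 0.205 in top1a-2 and 0.228 and 0.183 in Ler.

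The votes, which the lists give for the forward and the reverse direction on a scale that is also not stated, separated the classes further. The median sum of both votes was 0.0521 and 0.0584 for fuzzy calls against 0.135 and 0.157 for mid-range calls in top1a-2. In Ler it was 0.0845 and 0.0838 for fuzzy against 0.202 and 0.256 for mid-range calls. The log2 ratio averaged -1.42 ± 0.14 (SD, n = 4; exact sign-flip permutation p = 0.125), and the fuzzy medians of all 4 libraries lay below all mid-range medians. Votes, scores and fuzziness come from the same caller, and how far they measure separate things was not tested.

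Fuzzy calls stood further from their neighbours than mid-range calls. The median distance to the nearest call of the same list was 324 and 342 bp in top1a-2, against 348 and 370 bp in Ler for fuzzy calls. For mid-range calls it was 280 and 302 bp in top1a-2, against 305 and 335 bp in Ler. The excess of 40.5 ± 4.04 bp was present in 4 of 4 libraries (SD, n = 4; exact sign-flip permutation p = 0.125), at 44 and 40 bp in top1a-2, against 43 and 35 bp in Ler, with overlapping genotypes. Neighbours on both sides lay a median of 809 ± 40.6 bp apart around fuzzy calls and 701 ± 46.4 bp apart around mid-range calls. A gap of over 500 bp adjoined 36.8% ± 7.60 of fuzzy and 20.7% ± 7.26 of mid-range calls. A nearest call closer than 200 bp was found for 3.46% and 2.79% of the fuzzy calls in top1a-2 and 2.54% and 2.20% in Ler, against 11.8% and 8.93% of mid-range calls in top1a-2 and 7.63% and 6.24% in Ler.

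The share of fuzzy calls climbed with the room around a call. Among calls with a neighbour under 150 bp away, 0.204% and 0.303% were fuzzy in top1a-2 and 0.336% and 0.216% in Ler. Among calls whose nearest neighbour was 400 bp or more away, 4.85% and 3.81% were fuzzy in top1a-2 and 3.46% and 3.06% in Ler. The genotypes did not overlap at 250 bp and over, while at shorter distances they did. Lists with more calls hold fewer isolated ones: 10.6% and 17.1% of the arm calls in top1a-2 and 18.1% and 28.8% in Ler had no neighbour within 400 bp. With the libraries weighted to the same mix of distances, the fuzzy share was 2.81% and 2.33% in top1a-2 against 2.08% and 2.00% in Ler, a difference of 0.527 percentage points (exact permutation p = 0.333). The unweighted difference was smaller, at 0.197. Without top1a-2 replicate 1 the weighted difference was 0.290, a setting added after the data were seen. Whether read depth moves this value was not tested, since depth is not in the lists.

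What the other libraries held at the same place was then examined, which the choice of the members did not use. For each fuzzy call, the calls of each of the 3 other libraries within 73 bp were counted, over 12 ordered pairs of libraries. On average 59.1% ± 0.833 of the fuzzy calls had no call of another library there (SD, n = 4), 34.1% ± 1.73 had 1 narrower call of under 55 bp, 6.80% ± 0.935 had 1 fuzzy call, and 0.0548% ± 0.0265 had 2 or more calls. For mid-range calls these shares were 40.7% ± 1.97, 58.7% ± 1.90, 0.457% ± 0.0623 and 0.135% ± 0.0212. The share with no call was higher for fuzzy than for mid-range calls by 18.4 ± 2.73 percentage points in 4 of 4 libraries (exact sign-flip permutation p = 0.125).

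Fuzzy calls were also set against all places on the arms. Of all arm positions, 59.4% ± 0.966 lay over 73 bp from every call of another library (SD, n = 4 means over the 3 others). The difference between fuzzy calls and arm positions was -2.28 and -0.956 percentage points in top1a-2 and 0.00108 and 1.88 in Ler, averaging -0.339 ± 1.75 (SD, n = 4; exact sign-flip permutation p = 0.75). The sign differed between the libraries, and both top1a-2 values were below both Ler values (exact permutation p = 0.333), so the mean does not show that fuzzy calls and arm positions are alike. Mid-range calls were below arm positions by 17.6 and 18.7 percentage points in top1a-2 and by 18.5 and 20.0 in Ler.

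When another library did hold a single call within 73 bp of a fuzzy call, that call was mostly narrower. It was fuzzy more often than the single partners of mid-range calls, and than all arm calls, of which 2.12% to 2.42% were fuzzy. The share was 13.2% and 16.5% for the fuzzy calls of top1a-2 and 17.8% and 19.2% for those of Ler, against 0.644% and 0.794% for mid-range calls in top1a-2 and 0.784% and 0.829% in Ler. The difference was 15.9 ± 2.5 percentage points (SD, n = 4; 4 of 4 libraries, exact sign-flip permutation p = 0.125). With fuzzy and mid-range calls weighted to the same distances to the nearest call it was also 15.9. The remaining partners spread over all narrower values. Among single partners of fuzzy calls, 20.4% to 37.5% over the 12 pairs had a fuzziness under 35 bp and 22.0% to 36.4% one of 35 to 45 bp. Among partners of mid-range calls, 59.97% to 71.6% were mid-range themselves. That is only somewhat above their share of all arm calls, which was 52.5% and 57.4% in top1a-2 and 59.9% and 61.3% in Ler.

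**Figure D3:**
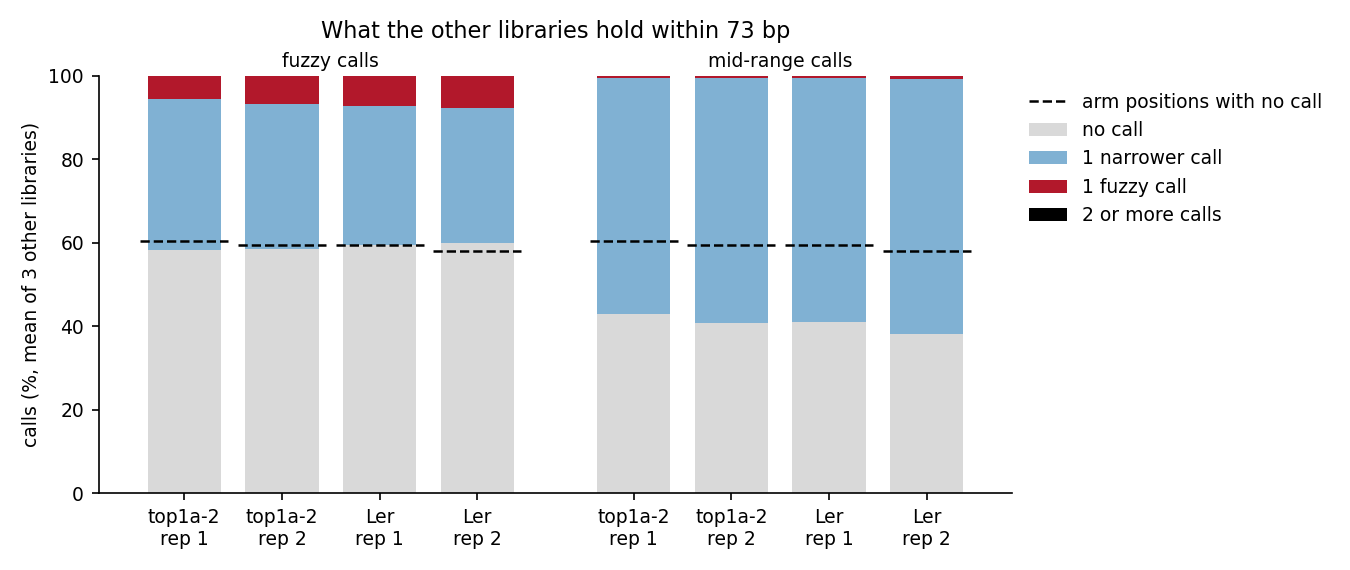
Outcome of looking for calls of the other libraries within 73 bp of the fuzzy calls (left 4 bars) and the mid-range calls (right 4 bars) of each library, as a percentage averaged over the 3 other libraries. Dashed lines give the percentage of arm positions with no call within 73 bp, which the fuzzy calls lie close to and the mid-range calls stay well below; 2 or more calls are too rare to be seen.

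Partner libraries of the same and of the other genotype were compared next. Of the single partners of fuzzy calls, 16.3% ± 2.70 were fuzzy in the library of the same genotype and 16.9% ± 2.60 in the libraries of the other genotype (SD, n = 4), a difference of -0.609 ± 1.15 percentage points (exact sign-flip permutation p = 0.375). For no call within 73 bp the shares were 58.6% ± 1.38 in the same and 59.3% ± 0.830 in the other genotype (exact sign-flip permutation p = 0.375). In both comparisons 3 of 4 libraries had the same sign, and with 4 libraries the test could not have gone below 0.125, so neither value shows that the partner's genotype makes no difference. By the genotype that supplied the fuzzy calls there was a difference without overlap. The excess of fuzzy partners over that of mid-range calls was 12.54 and 15.7 percentage points for top1a-2 and 17.0 and 18.4 for Ler (exact permutation p = 0.333). The excess of unmatched calls over that of mid-range calls was 15.3 and 17.7 percentage points for top1a-2 and 18.5 and 21.9 for Ler (exact permutation p = 0.333). Without top1a-2 replicate 1 the genotypes differed by -1.75 points in fuzzy partners, against -3.58 with it, and by -2.34 against -3.71 points in unmatched calls. Without Ler replicate 1 the difference in unmatched calls was -7.00, and without top1a-2 replicate 2 it was -5.69. Both orders follow the number of arm calls, which was nearly equal in top1a-2 replicate 2 and Ler replicate 1, at 257078 and 256502. Over whole lists these 2 libraries stand the other way round, at 315609 and 315744 calls. The part of call number in both orders was not tested.

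Averaged over fuzzy calls, the other libraries had a lower density of calls at the fuzzy call than at 75 to 125 bp from it. Whether single fuzzy calls had such calls on both sides was not counted. Within 25 bp of a fuzzy call, the other libraries held 2.65 and 2.57 calls per kb for top1a-2 and 2.41 and 2.28 for Ler. At 75 to 125 bp from it they held more, 3.13 and 3.44 calls per kb for top1a-2 and 3.52 and 3.69 for Ler. The profile therefore had a shallow dip at the call and a maximum on either side. The density was 2.39 and 2.35 calls per kb for top1a-2 and 2.29 and 2.56 for Ler at 150 to 225 bp, which was lower than at the call itself in 3 of 4 libraries. Around mid-range calls it was the reverse, with 5.02 and 5.20 calls per kb within 25 bp for top1a-2 and 5.18 and 5.44 for Ler, and 2.16 and 2.22 for top1a-2 against 2.20 and 2.32 for Ler at 75 to 125 bp. The log2 ratio of the density within 25 bp to that at 75 to 125 bp was -0.24 and -0.42 for the fuzzy calls of top1a-2 and -0.54 and -0.69 for those of Ler. It was 1.22 and 1.23 for the mid-range calls of top1a-2 and 1.24 and 1.23 for those of Ler. The difference averaged -1.70 ± 0.20 (SD, n = 4; 4 of 4 libraries, exact sign-flip permutation p = 0.125).

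The partners that were fuzzy themselves behaved differently. Fuzzy calls of the other libraries were densest at the call, with 0.562 and 0.704 per kb within 25 bp for top1a-2 and 0.748 and 0.805 for Ler, while at 75 to 125 bp their density was 0.101 and 0.106 for top1a-2 and 0.113 and 0.127 for Ler. Their median offset from the fuzzy call was 22 to 25 bp over the 12 pairs. Narrower partners lay at a median offset of 41 to 49 bp, against 28 to 29 bp for the narrower partners of mid-range calls. Around mid-range calls, fuzzy calls of other libraries were sparsest at the call itself, with 0.0147 to 0.0239 per kb within 25 bp and 0.0497 to 0.0550 at 75 to 125 bp.

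**Figure D4:**
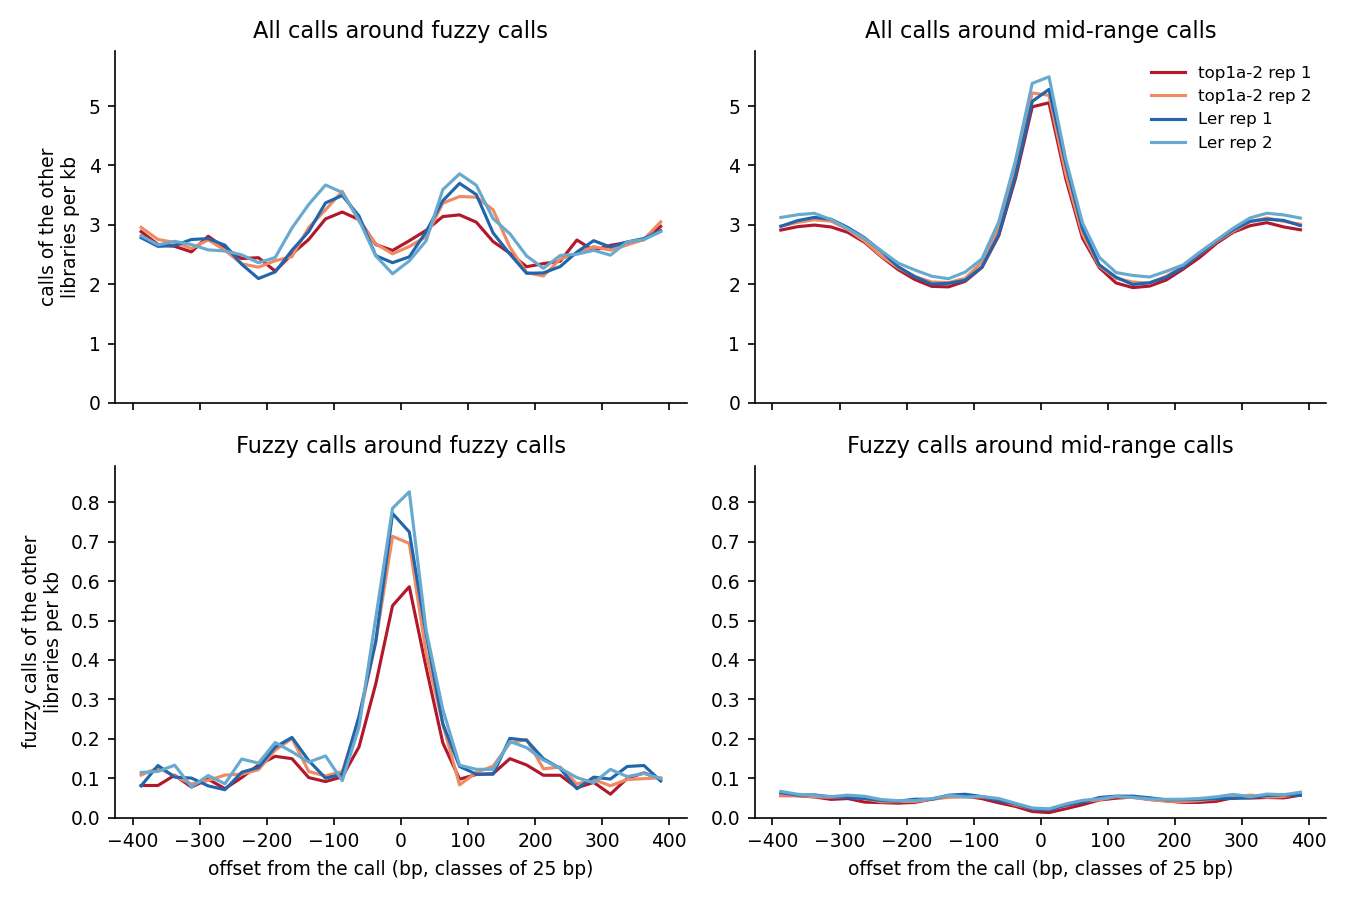
Calls of the other libraries (top row) and their fuzzy calls alone (bottom row) per kb, against the offset in bp from the fuzzy calls (left) and the mid-range calls (right) of each library. All calls show a dip at a fuzzy call with maxima near 100 bp on both sides, while fuzzy calls of other libraries peak at the fuzzy call.

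Fuzzy calls with 2 or more calls of another library within 73 bp were nearly absent, and the lists leave little room for 2 calls there. The 12 ordered pairs gave 1 to 6 fuzzy calls with 2 or more calls of the other library within 73 bp, and 0.0421% to 0.0908% of arm positions had them. With the reach extended to 150 bp, a distance chosen after the profile was seen, the order of the classes turned round. Then 9.95% and 12.7% of the fuzzy calls in top1a-2 and 12.7% and 13.2% in Ler had 2 or more calls of another library. For mid-range calls the share was 5.69% and 6.92% in top1a-2 and 7.05% and 8.33% in Ler. The difference was 5.12 ± 0.701 percentage points in 4 of 4 libraries (SD, n = 4; exact sign-flip permutation p = 0.125). The share of arm positions with 2 or more calls within 150 bp was not computed, so this difference has no such background.

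Over all 3 other libraries together, 26.7% and 26.9% of the fuzzy calls in top1a-2 and 28.4% and 29.8% in Ler had no call within 73 bp in any of them. For mid-range calls this was 13.5% and 12.1% in top1a-2 and 12.4% and 10.7% in Ler. Calls in all 3 were found for 12.7% and 12.51% of the fuzzy calls in top1a-2 and 12.53% and 12.4% in Ler, against 26.0% and 28.0% of the mid-range calls in top1a-2 and 28.2% and 31.5% in Ler. Fuzzy partners in all 3 were found for 26 and 22 fuzzy calls in top1a-2 and for 25 and 23 in Ler, or 0.373% to 0.460% of them. Of the mid-range calls, 3 and 5 in top1a-2 and 1 and 3 in Ler had fuzzy partners in all 3.

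Counted from top1a-2 replicate 1, the 26 loci that were fuzzy in all 4 libraries lay on chromosomes 1 (7), 2 (4), 3 (6), 4 (1) and 5 (8). Their positions in the 4 libraries spread over a median of 54.5 bp. In top1a-2 replicate 1 most of these loci had sizes under 100 bp, against 14.2% of its fuzzy calls, and sizes of 10.6 to 13.1 bp recurred. Whether such short calls are nucleosomes was not tested. The locus with the highest mean fuzziness lay on chromosome 2 between 6959165 and 6959203, in the coordinates of the lists, whose build is not given. Its fuzziness was 95 and 97 bp in top1a-2, against 101 and 105 bp in Ler, with very high scores of 18.7 and 14.7 in top1a-2 and 26.2 and 25.04 in Ler. The call was given a size of 11.9 and 10.7 bp in top1a-2 but of 437 and 420 bp in Ler, all far from the median sizes of the class. The next locus, on chromosome 3 between 16771891 and 16771942, had a fuzziness of 66 and 69 bp in top1a-2, against 66 and 71 bp in Ler, and sizes of 12.2 and 15.5 bp in top1a-2, against 6.35 and 14.4 bp in Ler. No genome of the build was at hand, so the sequences and genes at these loci are not reported here.

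Along the arms, fuzzy calls followed each other more often than they followed mid-range calls. The next call after a fuzzy call was fuzzy in 4.48% and 4.72% of cases in top1a-2 and 4.29% and 4.24% in Ler. After a mid-range call it was fuzzy in 2.32% and 2.13% in top1a-2 and 1.93% and 2.02% in Ler. The difference of 2.33 ± 0.195 percentage points held in 4 of 4 libraries (SD, n = 4; exact sign-flip permutation p = 0.125), and the genotypes overlapped, at 2.16 and 2.60 points in top1a-2 against 2.37 and 2.21 in Ler. The ratio was 1.93 and 2.22 at the next call in top1a-2 and 2.23 and 2.09 in Ler. At the fifth call it was 1.15 and 1.22 in top1a-2 and 1.2 and 1.26 in Ler, and at 50 calls further on 1.02 and 0.856 in top1a-2 against 1.02 and 1.09 in Ler. Runs were short all the same. Fuzzy calls beside another fuzzy call made up 8.69% and 9.06% of the class in top1a-2 and 8.23% and 8.14% in Ler, and 16 and 18 runs of 3 or more were found in top1a-2 against 13 and 16 in Ler.

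The longest run held 5 calls in both top1a-2 libraries and 4 in both Ler libraries. In top1a-2 replicate 1 it lay on chromosome 1 from 29280956 to 29282627, with fuzziness between 59 and 61 bp. In top1a-2 replicate 2 it lay on chromosome 4 from 10290819 to 10295167, with 55 to 88 bp. Ler replicate 2 had its run on chromosome 1 from 21422204 to 21442372, stretched over 20168 bp by wide gaps, and Ler replicate 1 had 6 runs of that length, among them 1 on chromosome 1 from 21403746 to 21409109. Both Ler runs named here lay between 21400000 and 21500001. That stretch is the window left out below for having under 50 calls in a library.

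Fuzzy calls were more frequent towards the centromeres. In the pericentromeres, outside the arms, 4.46% and 4.58% of the calls in top1a-2 and 4.28% and 4.68% in Ler had a fuzziness of 55 bp or more, so that the genotypes overlapped there (exact permutation p = 1). The excess over the arms was 2.24 ± 0.182 percentage points in 4 of 4 libraries (SD, n = 4; exact sign-flip permutation p = 0.125). On the arms themselves the share was 2.79% and 2.91% in top1a-2 and 2.81% and 2.60% in Ler at 2.5 to 3 Mb from the midpoint. It was 2.32% and 2.23% in top1a-2 and 2.00% and 2.16% in Ler at over 10 Mb, where the genotypes no longer overlapped. The decline of 0.597 ± 0.174 percentage points was seen in 4 of 4 libraries (SD, n = 4; exact sign-flip permutation p = 0.125).

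**Figure D5:**
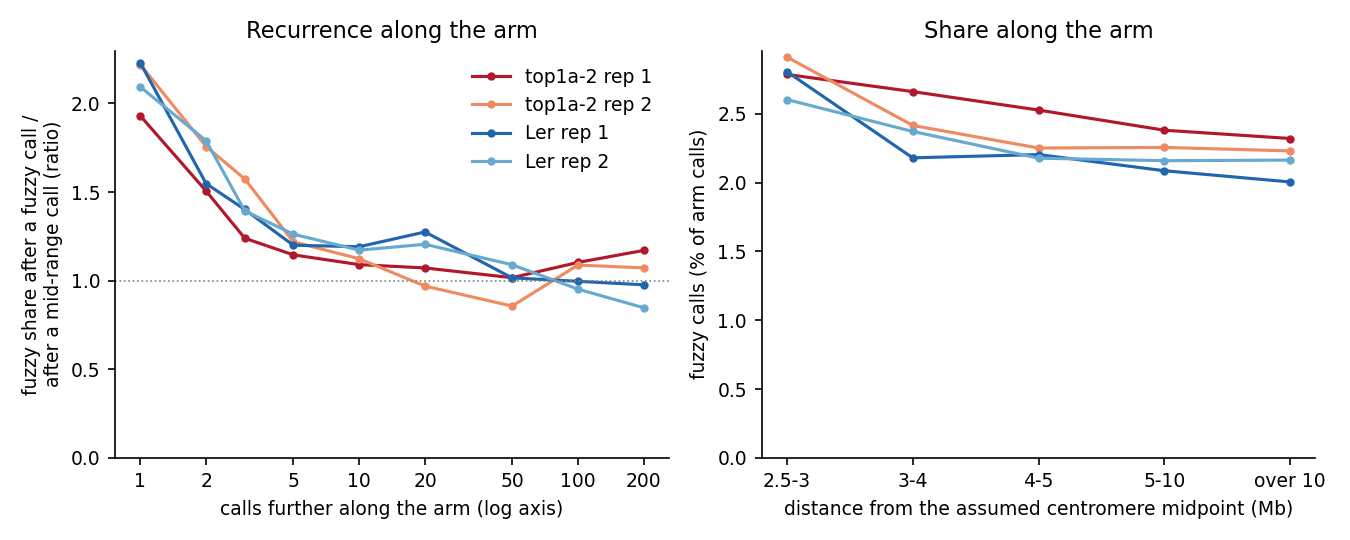
Left, the share of fuzzy calls among the calls 1 to 200 places after a fuzzy call divided by that after a mid-range call, per library on a log axis of places; the ratio is near 2 at the next call and between 0.847 and 1.17 from 50 places on. Right, fuzzy calls as a percentage of arm calls in 5 classes of distance from the assumed centromere midpoint, highest nearest to it.

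Single arms gave the same order of the genotypes with 1 exception. In 9 of the 10 arms both top1a-2 libraries had a higher fuzzy share than both Ler libraries, or 90% of the arms, and in none were both lower. The exception was the short arm of chromosome 4, with 2.78% and 2.36% in top1a-2 against 2.51% and 2.53% in Ler. The arms of a library are not independent of each other, so this count restates the shift of whole libraries. The widest separation was on the short arm of chromosome 2, with 2.77% and 2.62% in top1a-2 against 2.13% and 1.83% in Ler, where each library held only 50 to 87 fuzzy calls.

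In windows of 100 kb, no window passed the test for a difference between the genotypes. The fuzzy share was compared in 923 windows with at least 50 calls per library, which held a median of 7 and 6 fuzzy calls in top1a-2 and 6 and 5 in Ler. At a limma adjusted p of 0.05, 0 windows passed with a higher and 0 with a lower share in top1a-2 (0% of those tested in each direction). At an unadjusted p under 0.05 stood 47 windows, with 46.2 expected by chance, of which 32 (3.47%) were higher and 15 (1.63%) lower in top1a-2. The libraries of the genotypes did not overlap in 209 windows with a higher share in top1a-2 (22.6%) and in 109 with a lower one (11.8%). Without ties, random labels on 2 against 2 libraries give no overlap, in either direction, with a probability of 0.333. The median difference over all windows was 0.235 percentage points, and 61.5% of the windows were higher in top1a-2. With each library centred on its own mean, the median difference was 0.0405 percentage points, and 24 windows were higher and 20 lower at an unadjusted p under 0.05. Centring takes out any shift of whole libraries and sets the mean difference over windows to 0, so this near balance was largely built in. Where the excess of windows higher in top1a-2 comes from was not tested. Without Ler replicate 1, 14 windows were higher and 19 lower, and with 50 bp as the threshold 21 were higher and 16 lower, with a median difference of 0.0873.

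The 3 windows with the smallest p-values for a higher share were all on chromosome 1. From 29900001 to 29988303, the last call listed on the chromosome, 5 of 264 and 13 of 237 calls were fuzzy in top1a-2 against 2 of 246 and 1 of 212 in Ler. From 22600001 to 22700000 it was 11 of 322 and 15 of 294 in top1a-2 against 3 of 286 and 3 of 252 in Ler, and from 20200001 to 20300000 it was 10 of 291 and 7 of 303 in top1a-2 against 2 of 271 and 1 of 251 in Ler. The libraries did not overlap in these windows, but the counts are small and each had a limma adjusted p of 0.662. The 3 with the smallest p-values for a lower share began at 5700001 on chromosome 1, with 4 and 1 fuzzy calls in the mutant against 12 and 6 in Ler, at 16700001 on chromosome 4, with 3 and 1 in the mutant against 10 and 6 in Ler, and at 1000001 on chromosome 5, with 4 and 3 in the mutant against 9 and 11 in Ler (limma adjusted p = 0.662, 0.662 and 0.672).

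Some windows had a high share of fuzzy calls when averaged over the 4 libraries. The highest mean share was 10.4%, on chromosome 4 from 10700001 to 10800000, where 10 of 119 and 8 of 96 calls were fuzzy in top1a-2 and 16 of 111 and 12 of 114 in Ler. It was followed by a window on chromosome 3 from 16700001, with 5.71% and 5.45% in top1a-2 against Ler values of 7.88% and 8.79%, and by a window on chromosome 4 starting at 10200001, where the top1a-2 libraries had 3.57% and 7.95% against 5.61% and 8.74% in the Ler libraries. All 3 held fewer calls than the median window of 302 and 281 calls in top1a-2 and 280 and 252 in Ler. The 3.57% of top1a-2 replicate 1 in the third window was below the 90th percentile of that library's windows, 3.75%. The lowest mean share was 0.720%, on chromosome 2 from 19300001 to the last listed call at 19341109. There no library had more than 1 fuzzy call among its 86 to 118 calls.

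Across windows the fuzzy calls were only somewhat more clustered than their number implies. The variance of the counts was 1.18 and 1.29 times that expected from the calls per window in top1a-2, and 1.30 and 1.31 times in Ler. The fuzzy shares of the 923 windows correlated weakly between libraries, with Pearson's r of 0.185 between the top1a-2 libraries, 0.337 between the Ler libraries and 0.244 to 0.285 between genotypes. Spearman's rho was 0.121, 0.212 and 0.134 to 0.211 for the same pairs. The windows share their sequence and their density of calls, and these values are a description over few fuzzy calls per window.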

How the data were processed

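Micrococcal nuclease fragments from the band of mononucleosomes were sequenced in 2 libraries of top1a-2 and 2 of Ler, per the labels' protocols, and the titles, which name the mutant libraries by the gene alone, give the groups. The authors deposited 1 list of calls per library. Per the file headers, the columns are position, fuzziness, size, confidence score and the votes for each direction. Not given in the sources used here: aligner, caller, genome build, the start of the position count, and the scaling of the deposited score and votes. The last genes of the TAIR10.1 table end 356 to 439 kb beyond the last calls, so its positions were not used. Read depth is unknown, and Wilson intervals cover counting error of calls only.

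The members and the measures were chosen with earlier results of these data known. Neighbours were taken within a list. Genotypes were compared by exact permutation (two-sided, 6 assignments), and fuzzy with mid-range calls of the same library by exact sign flips (two-sided, 16 patterns), each with Benjamini-Hochberg adjustment. Weighting to the same distances used classes divided at 150, 200, 250, 300 and 400 bp. Measures on votes, size spread, gaps, the profile and the reach of 150 bp were added after the data were seen. The fuzzy share of windows was fitted with limma 3.58.1 with a variance trend in R 4.3.3, top1a-2 minus Ler, and 1 window was left out for having under 50 calls in a library. Windows were named by the 3 smallest p-values in each direction, as none passed, and by the 3 highest and lowest mean shares. The longest runs were named by length, and the loci fuzzy in all libraries were named after their values were seen. Alternatives were thresholds of 50 and 60 bp, matches within 50, 100 and 150 bp, windows of 50 and 200 kb, other transformations and scalings of the windows, low scores left out, the same mix of distances, the replicate number as a block and each library left out. Functions were tested on simulated data. Python 3.11.15 and scipy 1.17.1 were used.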

Additional observations from a re-analysis of the deposited data

How the results depend on the processing

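Of 198 alternatives, 176 kept the direction or the number of windows. As no test of a single value can reach 0.05 here, only directions were compared. Leaving out a library cannot turn a genotype difference without overlap where the values of the other libraries stay as they were. For unmatched calls and fuzzy partners the left-out list was also not looked up, so the remaining values were computed again. The share and density of fuzzy calls and the differences between classes in size, distance, recurrence, unmatched calls and fuzzy partners had the same mean sign in every alternative run for them, but not the same size. The class difference in size fell to 2.31 from 6.49 bp at 60 bp (exact sign-flip permutation p = 0.5), and that in unmatched calls to 6.17 from 18.4 points within 150 bp. The genotype difference in fuzzy share at the same mix of distances ranged from 0.290 to 0.764 points without 1 library, against 0.527. The exceptions follow, and their cause was not tested. The log2 ratio of scores (-0.123) became 0.0452 at a threshold of 50 bp and 0.0175 without the lower quartile of the score. The class difference in 2 or more calls of another library (-0.0805 percentage points) became 0.00051, 0.129 and 5.12 within 50, 100 and 150 bp, the last added after the data were seen. Differences between the genotypes (top1a-2 minus Ler) in these class differences turned as follows. For recurrence, 0.0883 points became -0.0909 and -0.325 at thresholds of 50 and 60 bp and -0.123 at the same mix of distances. For 2 or more calls, 0.0185 points became -0.00586 at 60 bp and -0.0262 and -0.226 within 100 and 150 bp. For the log2 score ratio, 0.0248 became -0.0124 at the same mix of distances. Without 1 library at a time, the ranges were -2.82 to 5.75 bp for size, -0.0484 to 0.098 for the log2 score ratio, -1 to 7 bp for distance, -0.130 to 0.306 points for recurrence and -0.0113 to 0.0635 points for 2 or more calls. Windows that passed numbered 1 at a threshold of 50 bp against 0 at 55 bp. With libraries left out singly they numbered 0 to 1, and it was 1 when either Ler library or replicate 1 of top1a-2 was dropped; the lone library of a genotype is then assumed to vary like the others. With the replicate number as a block, the difference in fuzzy share was 0.197 points (exact sign-flip permutation p = 0.5, the smallest for 2 pairs) and 0 windows passed. The labels give same-numbered libraries only a number in common, and their deviations across windows correlated with r = 0.037. Unknown read depth limits all values.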
